A study of Mus musculus with 6 samples.

Results

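The 4 opioid receptor genes and the 4 genes for opioid peptide precursors were examined in J774A.1 cells, an established macrophage-like line from a Balb/c mouse. The cells had received neuropeptide FF (NPFF) at 1 nM in phosphate-buffered saline (PBS) for 18 h, or the PBS vehicle for the same 18 h, with 3 arrays in each group. The second group is called control here; its titles call it non-treated and its treatment labels call it vehicle. All arrays share the line and the serum-containing medium, no strain, genotype or other agent differs between the groups, and replicates are samples of a single tumour-derived line rather than of separate animals. The genes were chosen by name: Oprm1, Oprd1, Oprk1 and Oprl1 for the receptors, and Pomc, Penk, Pdyn and Pnoc for the precursors. Each of the 8 was represented by 1 array feature that named no other gene, so 8 of 8 were measured, among 22180 genes in all.

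Opioid peptides are cut from large precursor proteins and act on G-protein-coupled receptors that inhibit adenylyl cyclase. Pomc gives beta-endorphin along with the melanocortins and corticotropin, Penk gives the enkephalins, Pdyn the dynorphins and Pnoc nociceptin. Oprm1, Oprd1 and Oprk1 encode the mu, delta and kappa receptors, and Oprl1 encodes the nociceptin receptor. NPFF is known as an opioid-modulating peptide, and signals through receptors of its own, Npffr1 and Npffr2. Leukocytes are known as a source of opioid peptides in inflamed tissue, which is the background to looking at these genes in a macrophage line.

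Levels are log2 intensities after quantile normalization, and a positive difference means a higher level in NPFF. The arrays carried no detection call, so the levels of 1105 olfactory receptor genes, most of which are restricted to the nose, were used as a gauge of the dim range. The median olfactory receptor gene stood at 5.37, and 95% of them lay below 6.74. Of the 10 macrophage markers, all lay above 6.74 and 9 lay above the 90th percentile of all genes; the exception was Mertk, at the 58.8th percentile. Their mean level per array was 10.65 to 10.74 in NPFF and 10.46 to 10.75 in control. None of the 7 lymphocyte markers and none of the 8 pituitary and neuroendocrine markers measured lay above 6.74, and 2 of the 8 neuronal markers did, Rbfox3 and Syp. Control 1 stood apart from the other arrays, with a correlation of 0.965 to 0.979 with each of them, against 0.992 to 0.998 between all other pairs. The opioid genes are therefore also given without it.

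All 8 opioid genes lay in the dim part of the array. By mean level over the 6 arrays they ranked between the 18.2nd and the 49.5th percentile of all genes, with a median of 34.9, and 0 of 8 lay above the median gene. Of the 8, 7 lay above the 75th percentile of the olfactory receptor genes, all but Penk, and 0 lay above the 95th. Feature brightness also depends on the probes, so the ranks describe how bright each feature was and are not ratios of transcript number between genes. The order of mean levels was Oprd1, Pdyn, Oprk1, Oprl1, Pnoc, Oprm1, Pomc and Penk. In 6 of the 7 neighbouring pairs in this order the ranges over the 6 arrays overlapped; only Penk lay below its neighbour Pomc in every array of both.

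**Figure D1:**
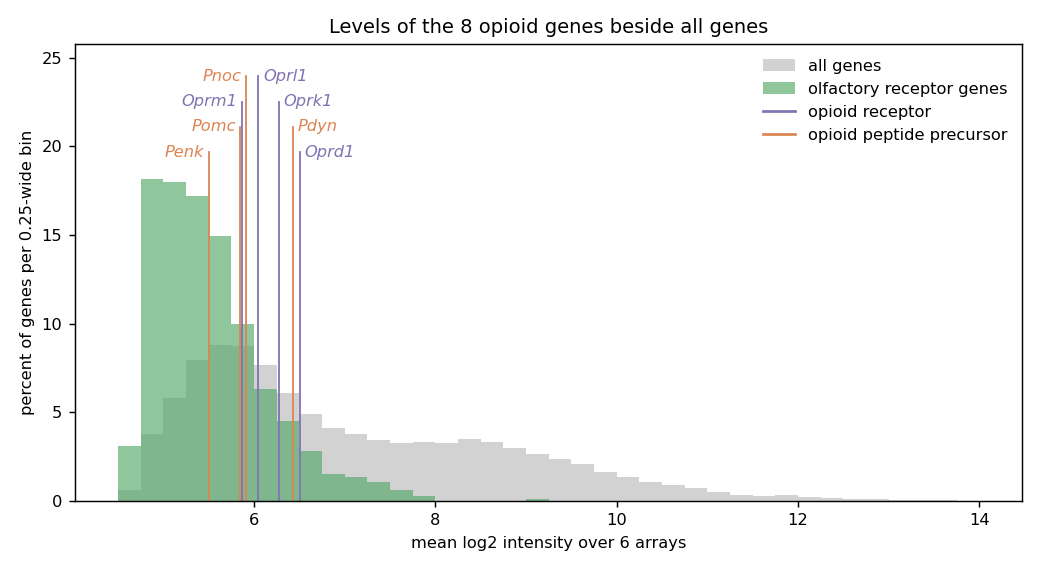
Distribution of mean log2 intensity over 6 arrays for all 22180 genes (grey) and for 1105 olfactory receptor genes (green), as percent of genes per bin, with vertical lines at the opioid receptors (purple) and opioid peptide precursors (orange). The 8 opioid genes sit between 5.50 and 6.50, to the left of the median gene at 6.52.

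Among the receptors, Oprd1, the delta receptor that enkephalins prefer, was the brightest, at the 49.5th percentile (feature 17430762). Its levels were 6.53, 6.55 and 6.58 in the NPFF arrays and 6.26, 6.57 and 6.55 in controls 1, 2 and 3. Control 1 was the low value and the other 5 arrays lay between 6.53 and 6.58. The group levels were 6.55 ± 0.03 in NPFF and 6.46 ± 0.17 in control (SD, n = 3 each), a difference of 0.09 (SE 0.10). Without control 1 the difference was -0.0057 (SE 0.06).

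Oprk1, the kappa receptor for dynorphins, ranked at the 43.9th percentile (feature 17210904). Its levels were 6.12, 6.20 and 6.21 in the NPFF arrays and 6.63, 6.25 and 6.21 in controls 1, 2 and 3. Here control 1 was the highest array, and control 3 lay within the range of the NPFF arrays. The group levels were 6.18 ± 0.05 in NPFF and 6.36 ± 0.23 in control (SD, n = 3 each). This gave the greatest difference of the 8 in size, -0.18 (SE 0.12), and without control 1 it was -0.05 (SE 0.06).

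Oprl1, the nociceptin receptor, ranked at the 37.2nd percentile (feature 17381128), with levels of 6.04, 6.004 and 6.18 in the NPFF arrays and 5.93, 6.12 and 6.001 in the control arrays. The groups interleaved, and the difference was 0.06 (SE 0.08). It was 0.02 (SE 0.07) without control 1, 0.11 without control 2 and 0.0075 without NPFF 3. Oprm1, the mu receptor on which morphine and beta-endorphin act, ranked at the 31.1st percentile (feature 17231495). Its levels were 5.82, 5.96 and 5.78 in the NPFF arrays and 5.78, 5.98 and 5.89 in the control arrays, a difference of -0.03 (SE 0.08), and of -0.08 (SE 0.07) without control 1. Its lowest value came from an NPFF array and its highest from control 2.

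Among the precursors, Pdyn, the source of dynorphins, was the brightest, at the 48.0th percentile (feature 17391590), and the steadiest of the 8 genes. Its levels were 6.47, 6.48 and 6.41 in the NPFF arrays and 6.35, 6.46 and 6.41 in the control arrays, so all 6 lay within 0.13 log2. The difference was 0.04 (SE 0.06), and it was 0.02 (SE 0.06) without control 1 and 0.07 without control 2. Pnoc, the nociceptin precursor, ranked at the 32.7th percentile (feature 17307749). Its levels were 5.86, 5.77 and 5.99 in the NPFF arrays and 5.76, 6.06 and 6.04 in controls 1, 2 and 3. Controls 2 and 3 lay above all NPFF arrays and control 1 below them. The difference was -0.08 (SE 0.11) over all arrays and -0.17 (SE 0.08) without control 1.

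Pomc, the precursor of beta-endorphin, corticotropin and the melanocortins, ranked at the 30.5th percentile (feature 17273694). Its levels were 5.87, 5.79 and 5.79 in the NPFF arrays and 5.77, 5.93 and 5.94 in controls 1, 2 and 3. As for Pnoc, controls 2 and 3 were above every NPFF array and control 1 was the lowest array of all. The difference was -0.06 (SE 0.07), and without control 1 it was -0.12 (SE 0.06).

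Penk, the enkephalin precursor, was the dimmest of the 8, at the 18.2nd percentile (feature 17423030), brighter than 56.6% of the olfactory receptor genes. Its levels were 5.47, 5.58 and 5.51 in the NPFF arrays and 5.29, 5.69 and 5.47 in controls 1, 2 and 3. The NPFF arrays lay between the lowest control and the highest control. The difference was 0.04 (SE 0.11), and it was -0.06 (SE 0.08) without control 1.

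**Figure D2:**
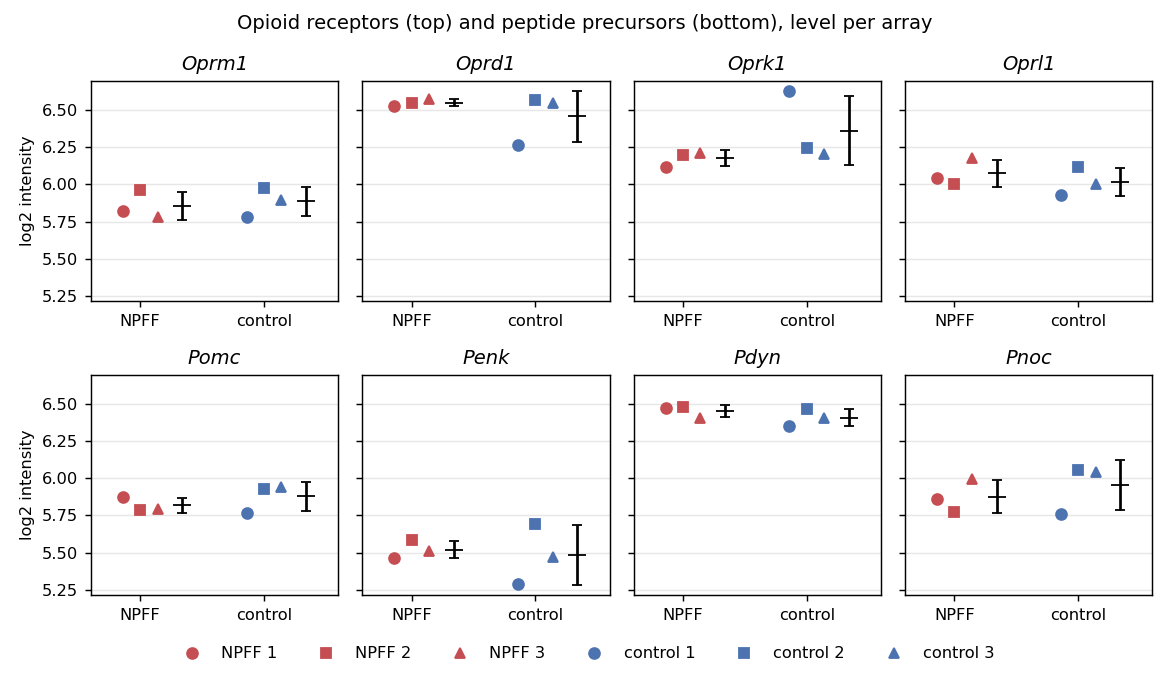
Log2 intensity of the 4 opioid receptors (top row) and 4 precursors (bottom row) on each of the 3 NPFF arrays (red) and 3 control arrays (blue), with the mean and SD of each group as a black bar. The groups overlap in all 8 genes. After quantile normalization, as drawn, control 1 (blue circle) is the lowest array in 6 of them and the highest in Oprk1.

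No difference between NPFF and control in an opioid gene passed the test. By limma with Benjamini-Hochberg adjustment over all genes, 0 of 8 had an adjusted p under 0.05, as had 0 of 22180 genes, or 0%. At an unadjusted p under 0.05 the counts were 0 of 8 and 556 of 22180, or 2.51%. The unadjusted p-values of the 8 ran from 0.175 for Oprk1 to 0.750 for Penk, and the smallest adjusted p by limma was 1.00. In NPFF 4 genes were higher and 4 lower, with a median difference of 0.00, the same as over all genes. An exact two-sided permutation test over the 6 arrays, which can give no p below 0.1 with 3 arrays in each group, gave 0.2 or more for every gene. The groups overlapped in 8 of 8 genes, where 8.58% of all genes had groups that did not overlap, 3.67% with NPFF higher and 4.92% with NPFF lower.

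The 95% intervals of the 8 differences all held 0 and bound what these arrays can show. The widest was that of Oprk1, whose lower bound of -0.47 was the lowest of all and corresponds to 0.720-fold of control. The highest upper bound was that of Oprd1, 0.32, or 1.25-fold of control. These bounds are for feature intensity. A change of RNA level can be compressed in the intensity of a dim feature, so they do not bound the change in transcript number.

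**Figure D3:**
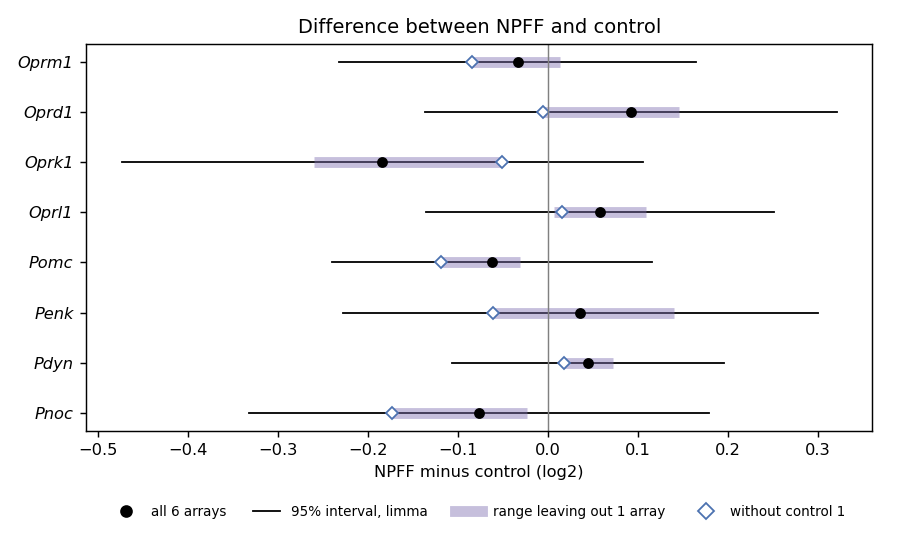
NPFF minus control on the log2 scale for each opioid gene, with the 95% interval of the limma fit (black line), the range of values when 1 array is left out (purple bar) and the value without control 1 (open diamond). All intervals hold 0, and the diamonds of Oprd1 and Penk lie on the other side of 0 from the values over all 6 arrays.

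The spread of the 8 genes lay mostly in the control group. The SD was larger in control than in NPFF in 8 of 8 genes, with a median of 0.05 in NPFF and 0.13 in control. Over all genes these medians were 0.07 and 0.14. For Oprm1 (0.095 in NPFF, 0.098 in control) and Oprl1 (0.090 and 0.094) the SDs were nearly equal. Control 1 was the lowest array for Oprd1, Oprl1, Pomc, Penk, Pdyn and Pnoc and the highest for Oprk1. Control 2 was the highest array for Oprm1, Penk and Pnoc. The mean level of the 8 genes was 6.02, 6.04 and 6.06 in the NPFF arrays and 5.97, 6.13 and 6.06 in controls 1, 2 and 3. As deposited, before quantile normalization, it was 6.02, 6.03 and 6.06 in NPFF and 6.08, 6.09 and 6.02 in controls 1, 2 and 3. Control 1 was thus the lowest array for this mean only after normalization. The olfactory receptor genes went the other way after normalization. Their mean deviation from the 6-array mean was 0.33 in control 1, -0.18 in control 2, and between -0.09 and 0.01 in the other 4 arrays. As deposited, their mean level was 5.93 in control 1 and between 5.30 and 5.54 in the other arrays. Oprk1, with a deviation of 0.36 in control 1, was thus high where the olfactory receptor genes were high, and Oprd1, at -0.24, and Penk, at -0.21, were low there. What part control 1 has in the differences of these genes was not tested beyond leaving it out.

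**Figure D4:**
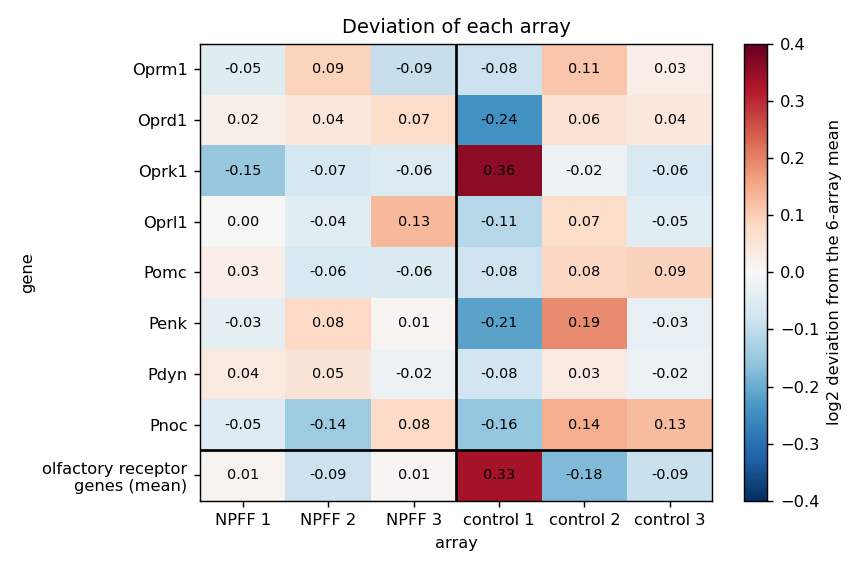
Deviation of each array from the 6-array mean, in log2 after quantile normalization, for the 8 opioid genes. The bottom row is the mean over 1105 olfactory receptor genes. In control 1, Oprk1 (0.36) and the olfactory receptor genes (0.33) are high while Oprd1 (-0.24), Penk (-0.21) and Pnoc (-0.16) are low.

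Without control 1, the groups no longer overlapped for 2 of the 8 genes, Pomc and Pnoc, both lower in NPFF. This is 25% of the opioid genes, and 27.3% of all genes had groups that did not overlap in that setting. By limma the adjusted p was 0.527 for Pomc and 0.466 for Pnoc there, over all genes. Without control 3, which had the highest Pomc value, the difference of Pomc was -0.03 and that of Pnoc -0.03, and without control 2 they were -0.04 and -0.02. Against control 3 alone the groups did not overlap for 3 of the 8, Oprl1 above and Pomc and Pnoc below it, where this held for 49.6% of all genes.

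The other genes of the opioid pathway were taken from 7 lists. These cover NPFF and its receptors, peptide processing, peptide degradation, receptor coupling, effectors, other opioid-binding proteins or their relatives, and the melanocortin system. Of 68 listed genes, 61 had a feature of their own. By limma 0 of the 61 had an adjusted p under 0.05 and 4 had an unadjusted p under 0.05, or 6.56%, against 2.51% of all genes. The groups did not overlap in 9 of 61, or 14.8%, of which 2 were higher and 7 lower in NPFF, against 8.58% of all genes. Without control 1 the share was 31.1%, against 27.3% of all genes. The median difference was 0.01, against 0.00 over all genes. Of the 61, 29 were brighter than the 95th percentile of the olfactory receptor genes, or 47.5%, against 45.8% of all genes.

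The genes of peptide processing spanned bright and dim levels. In the account of levels that follows, genes were singled out after their values were seen. Among the bright ones, Ctsl, a cathepsin that can also cut proenkephalin, lay at the 99.2nd percentile, the amidating enzyme Pam at the 91.2nd, the carboxypeptidase Cpd at the 89.97th and the convertase Furin at the 77.2nd. Among the dim ones, the convertase Pcsk1 lay at the 30.2nd percentile, the carboxypeptidase Cpe at the 28.6th and the convertase chaperone Scg5 at the 25.6th; the convertase inhibitor Pcsk1n lay between, at the 51.0th. In 1 of 9 measured processing genes, or 11.1%, the groups did not overlap, near the 8.58% of all genes. Cpd stood at 9.44, 9.40 and 9.44 in the NPFF arrays and 9.50, 9.59 and 9.45 in the control arrays, a difference of -0.09 (SE 0.06), which was -0.05 without control 2.

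Among 8 peptidases that degrade opioid peptides, the groups did not overlap in 3, or 37.5%, against 8.58% of all genes. Anpep, the aminopeptidase N that removes the first residue of enkephalins, lay at the 90.6th percentile and had the greatest difference of all pathway genes in size. Its levels were 9.22, 9.21 and 9.42 in the NPFF arrays and 9.68, 10.08 and 9.61 in the control arrays, and every NPFF array was below every control. The group levels were 9.28 ± 0.12 in NPFF and 9.79 ± 0.25 in control (SD, n = 3 each), a difference of -0.51 (SE 0.14), with an unadjusted p of 0.00901 by limma that did not pass the adjustment over all genes. Leaving out single arrays moved it between -0.60 and -0.36. The other 2 were smaller or rested on 1 array. Ece1, an endothelin-converting enzyme, differed by -0.16 (SE 0.09), and by -0.08 without control 2. Thop1, a cytosolic oligopeptidase, stood at 7.33, 7.31 and 7.32 in the NPFF arrays and at 6.40, 7.14 and 7.31 in controls 1, 2 and 3; the difference of 0.37 (SE 0.23) was 0.09 without control 1. Mme, the neprilysin that is the other main enkephalin-degrading enzyme, was dim, at the 29.6th percentile.

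The genes through which opioid receptors signal and are switched off were bright in part. Of 15 measured coupling genes, 9 lay above the 95th percentile of the olfactory receptor genes, or 60.0%, against 45.8% of all genes. The inhibitory G-protein subunit Gnai2 lay at the 97.8th percentile, the arrestin Arrb2 at the 97.8th, the regulator of G-protein signalling Rgs19 at the 95.2nd and Gnai3 at the 93.3rd. Gnao1, the subunit abundant in neurons, lay at the 39.9th. In 1 of the 15, or 6.67%, the groups did not overlap, against 8.58% of all genes. Wls, a sorting protein that binds the mu receptor, stood at 9.03, 9.14 and 9.258 in the NPFF arrays and 9.43, 9.265 and 9.273 in the control arrays, a difference of -0.18 (SE 0.09). NPFF 3 and control 2 were nearly equal.

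Of 14 measured effectors, 5 lay above the 95th percentile of the olfactory receptor genes, or 35.7%, against 45.8% of all genes. The groups did not overlap in 2, or 14.3%, against 8.58% of all genes. The adenylyl cyclase Adcy7 was the brightest effector, at the 88.0th percentile, and the 4 inward rectifier potassium channels that opioid receptors open in neurons lay between the 40.1st percentile, for Kcnj6, and the 45.3rd, for Kcnj9. Cacna1a, a voltage-gated calcium channel subunit, stood at 8.37, 8.41 and 8.38 in the NPFF arrays and 8.49, 8.68 and 8.55 in the control arrays, a difference of -0.19 (SE 0.07). The adenylyl cyclase Adcy9 differed by -0.21 (SE 0.10), and by -0.10 without control 2. Among the 4 measured genes listed as other opioid-binding proteins or their relatives, the groups did not overlap in 1, or 25%, against 8.58% of all genes. This was Ogfrl1, listed only as a relative of the opioid growth factor receptor. Its levels were 8.61, 8.47 and 8.55 in the NPFF arrays and 9.10, 8.94 and 8.68 in the control arrays, a difference of -0.36 (SE 0.11). Leaving out single arrays moved the difference of Ogfrl1 between -0.48 and -0.27, and against control 3 alone it was -0.14. The opioid growth factor receptor Ogfr itself, at the 80.4th percentile, differed by 0.14 (SE 0.10), and Ackr3 (59.1st percentile), an atypical chemokine receptor reported to take up opioid peptides, by 0.00 (SE 0.10). Opcml, at the 42.9th percentile, differed by -0.21 (SE 0.10), with overlapping groups. None of these passed the adjusted threshold of limma.

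The melanocortin system, through which other Pomc products act, was dim. Of its 7 measured genes, 0 lay above the 95th percentile of the olfactory receptor genes, against 45.8% of all genes. The 5 receptors lay between the 14.3rd percentile, for Mc2r, and the 25.7th, for Mc4r, against a median of 13.9 for the olfactory receptor genes. Of the accessory proteins, Mrap2 lay at the 16.5th and Mrap at the 51.7th. The groups overlapped in 7 of 7, where 8.58% of all genes had groups that did not overlap. The 2 of smallest p were Mc1r, with a difference of -0.11 (SE 0.09), and Mc4r, with 0.10 (SE 0.09). With 1 array left out they ranged from -0.18 to -0.04 and from 0.02 to 0.17. In NPFF's own system, the groups did not overlap in 1 of 4 genes, or 25%, against 8.58% of all genes. Npff, Npvf and Npffr2 overlapped, with differences of -0.10, 0.003 and 0.01. Npffr1 did not, at the 50.9th percentile with a difference of 0.24 (SE 0.06), and did not pass the adjusted threshold of limma. Npffr1 was thus close in brightness to the brightest opioid receptor, Oprd1, and above 93.3% of the olfactory receptor genes. As a further gauge, 14 measured genes restricted to retina, testis, pancreas, liver or muscle lay between the 5.5th and the 44.7th percentile. Their groups overlapped in 14 of 14, beside the 8.58% of all genes whose groups did not overlap. The 2 of smallest p among them were the cone opsin Opn1mw, at 0.07 (SE 0.06), and the rod phosphodiesterase Pde6b, at 0.09 (SE 0.10), which was 0.03 without control 1 and 0.16 without NPFF 1.

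**Figure D5:**
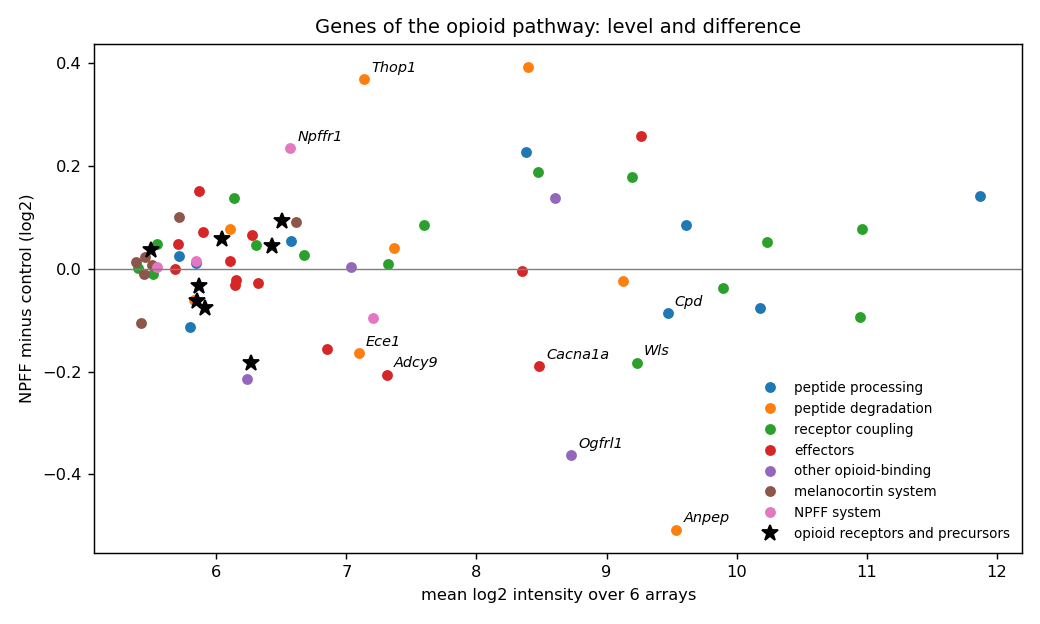
Mean log2 intensity over 6 arrays (horizontal) against NPFF minus control in log2 (vertical) for the 61 measured pathway genes, coloured by list, and the 8 opioid receptors and precursors (stars). Names mark the 9 genes whose groups did not overlap; Anpep is the lowest point, at -0.51, and the stars lie between -0.18 and 0.09.

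The genes most like the brightest receptor and the brightest precursor across the arrays were found by Pearson's r over the 6 arrays, among 18569 other genes with an established symbol; no test was made. For Oprd1 they were Nfkbid, Ppfia1 and Bcorl1, with r of 0.999, 0.998 and 0.998 on 6 arrays, and of 0.977, 0.957 and 0.882 on the 4 arrays left without control 1 and NPFF 3, the arrays farthest from the median of Oprd1. As many as 1490 genes had an r above 0.95 with Oprd1, whose low value lay in control 1. For Pdyn they were Derl3, Camk2n1 and Far2, each with r of 0.990, and 97 genes had an r above 0.95. Their r on the 4 arrays without control 1 and NPFF 2 was 0.992 or above, while Pdyn spanned only 0.13 log2 over all 6 arrays. For Oprd1 and Pdyn alike, the genes were picked by r on these same arrays. An r on 4 of them is therefore no separate check.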

How the data were processed

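Biotin-labelled targets from 6 samples of J774A.1 RNA were hybridised to Affymetrix whole-transcript arrays, per the labels. The deposited values were taken as log2 intensities of transcript clusters because they span 4.59 to 14.0. How the authors corrected background and normalized is not given in the sources used here, and no genome build is named, so no coordinates are printed. A platform annotation paired 23521 of 33794 features with exactly 1 symbol. The arrays did not share a distribution (sorted values differed from their average by as much as 0.17), and quantile normalization over all features was applied. For each of 22180 genes the brightest feature was kept. NPFF and control were compared with limma (version 3.58.1, R 4.3.3) on group alone, with 4 residual and 2.49 prior degrees of freedom. The two-sided p-values were adjusted over all genes by Benjamini-Hochberg, and the threshold was 0.05. SE and intervals are those of this fit. A test of the fit on simulated data covered calls of changed genes and their signs, not the SE or the intervals. Olfactory receptor genes were taken by symbol.

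Members, lists and tests were chosen with earlier results of these data known. From each list the text names the genes whose groups did not overlap, or else the 2 of smallest p. Alternatives covered normalization, dim genes, several features per gene, the replicate number as a block, arrays left out and array weights. The labels call the replicates biological without saying how they were grown, so the p-values measure spread that may be technical. Arrays carry no counting depth, and 3 per group limit the precision. Listed genes that lacked a feature with their symbol alone were not analysed here.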

Additional observations from a re-analysis of the deposited data

How the results depend on the processing

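The opioid genes stayed short of the adjusted threshold in limma under all 15 alternatives, and their smallest adjusted p over these was 0.0773, for Pnoc with array weights by restricted maximum likelihood (reml). Those weights, 22.6 for control 3 and 0.0773 for control 1, gave 1127 calls over all genes and 8 among the 75 genes of the pathway and tissue-restricted lists, where every other alternative gave 0 of each; gene-by-gene weights were among the latter. Among the genes named above, Npffr1 (0.23), Anpep (-0.34), Cacna1a (-0.17), Mc4r (0.25), Cpe (-0.19) and Opcml (-0.30) passed with the reml weights. Signs turned for 3 opioid genes, none of them called. Leaving out 1 array, Oprm1 ranged from -0.087 to 0.013, and was 0.0039 without NPFF 3 and 0.013 without control 2. Oprd1 ranged from -0.0057 without control 1 to 0.15, and Penk from -0.061 without control 1 to 0.14. With gene-by-gene weights Penk was at -0.0026. The median percentile of the opioid genes was 16.2 with genes under the 25th percentile of signal left out, which removes Penk and the lower end of the scale. As an alternative chosen after seeing the data, the count of opioid genes whose groups did not overlap, 0 with all arrays, was 2 without control 1 and 3 without controls 1 and 2, and the count of pathway genes, 9 with all arrays, was 19 and 28; of all genes, 8.58%, 27.3% and 49.6% did not overlap in these settings. With the replicate number as a block, 0 genes and 0 opioid genes passed limma and 396 genes had an unadjusted p under 0.05. Deviations of same-numbered arrays from their group means correlated at 0.23, 0.45 and -0.33. With 3 arrays per group this cannot decide whether equal numbers were grown or handled together, and the labels do not say. The unadjusted count was 235 to 2397 with 1 array left out. The causes were not tested. Dimness limits the results for the opioid genes, since none of the 8 lay above the 95th percentile of the olfactory receptor genes.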
